A study of Saccharomyces cerevisiae with 6 samples.

Results

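The genes described here make amino acids other than the sulfur ones in Saccharomyces cerevisiae, together with GCN4, the transcription factor that controls many of them. They were chosen by gene symbol, not by their values, though with earlier results of these data known, and number 56. Of these, 53 were among the 5365 genes with a named probe on the array, and HIS3, ARO1 and ARG7 were not analysed here. Of the 53, 44 had a value in all 3 hybridizations, which is 83.0% against 67.3% of all named genes, and the other 9 had a value in 2. Yeast of strain S288C in exponential growth received 5 mM of the actinide thorium for 2 h, and their RNA was compared with RNA of cells grown on for the same 2 h with nothing added. Both cultures were of the same strain, in YPD, a rich glucose medium that itself supplies amino acids, at 25 °C. In each of 3 hybridizations polyA RNA of thorium-treated cells carried Cy5 and that of untreated cells Cy3. The hybridizations used separate biological samples, and each array was read at a high and a low laser power. The values are ratios and hold no levels, so no marker of the strain could be checked.

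Amino acid synthesis in budding yeast is run by linear and branched enzyme pathways, many of which are switched on together when any amino acid runs short. In this general amino acid control, uncharged tRNA activates the kinase Gcn2, which phosphorylates the initiation factor eIF2. Translation of GCN4 mRNA then increases, and Gcn4 binds the promoters of genes in nearly all of these pathways. Gcn4 is thus set largely by translation, and the amount of its mRNA is not a measure of its activity. Single pathways also have activators of their own, such as Lys14 for lysine and Leu3 for leucine, which respond to a pathway intermediate.

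Each value is a log2 ratio, thorium over untreated, so that a value below 0 stands for likely lower RNA in thorium. That direction follows from which dye each culture carried, and base 2 was assumed, since neither is stated. The dyes were not exchanged on any array, so that thorium and dye cannot be told apart. A ratio below 0 likewise does not separate less of an mRNA in each cell from fewer cells that hold it. As deposited, replicate 1 stood apart from the others. Across the 3613 genes with a value in every replicate its Pearson correlation was 0.09 with replicate 2 and 0.02 with replicate 3, while replicates 2 and 3 correlated at 0.56. Over the 44 amino acid genes these correlations were -0.13, -0.20 and 0.46, so the results are given with and without replicate 1. After each scan was centred within sections of the array, a step described below, the correlations over all genes were 0.32, 0.25 and 0.46. Over the 44 genes they were then 0.29, 0.08 and 0.42. These are correlations across genes on shared arrays, and genes are not independent replicates.

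**Figure D1:**
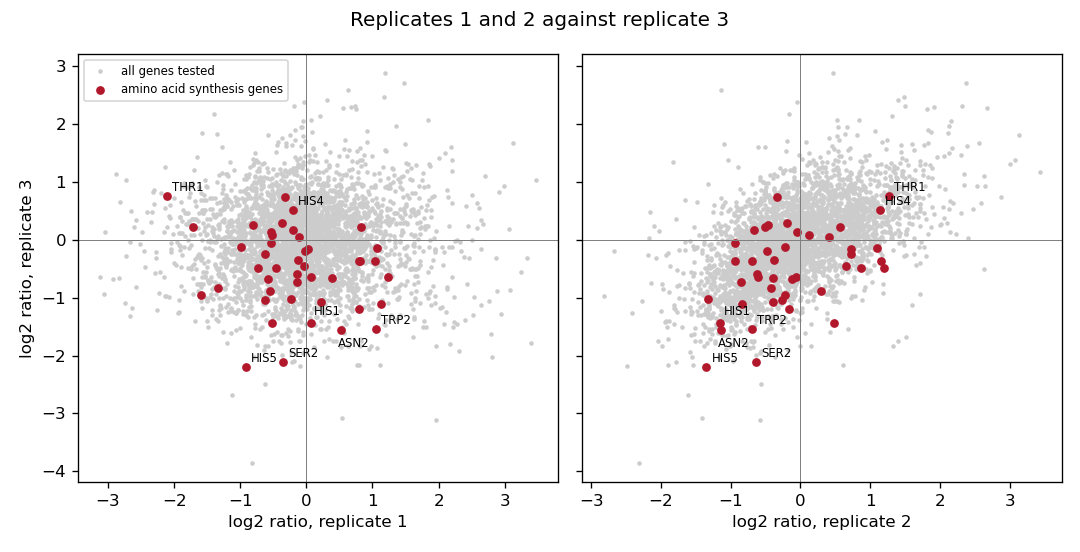
Log2 ratios of replicate 1 (left) and replicate 2 (right) on the horizontal axis against replicate 3 on the vertical axis. Grey points are the 3613 genes tested and red points the 44 amino acid synthesis genes with a value in all 3 replicates. For the red points Pearson r was 0.46 between replicates 2 and 3 and -0.20 between replicates 1 and 3. Over all genes tested these were 0.56 and 0.02. All values are as deposited.

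Most of the amino acid genes lay a little below 0. The mean over replicates was below 0 for 36 of the 44 genes and above 0 for 8, where 56.5% of all genes tested were below 0. Their median was -0.23, against -0.09 for all genes tested. The medians of replicates 1, 2 and 3 were -0.21, -0.30 and -0.47, or -0.32 ± 0.13 (SD, n = 3), and the same medians over all genes were -0.11, -0.12 and -0.05. The genes below 0 in every replicate were 13, or 29.5%, against 23.2% of all genes tested, and only GDH1 was above 0 in every replicate (2.27% of the members against 15.4% of all genes). In 15 of the 44 genes replicates 2 and 3 shared a sign and replicate 1 had the other, a pattern seen in 32.2% of all genes.

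No member passed the test over all genes. Each gene's mean was tested against 0 with limma, with adjustment over the 3613 genes, and 0 members and 0 genes in all (0%) had an adjusted p under 0.05. The smallest adjusted p of a member was 0.271. At an unadjusted p under 0.05 there were 5 members, HIS5, ARO4, ARG2, SER2 and THR4, all below 0. That is 11.4% of the members against 13.8% of all genes, so the members were not called more often than other genes. Values below are therefore given as measurements, and "below 0" describes a position, not a call.

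**Figure D2:**
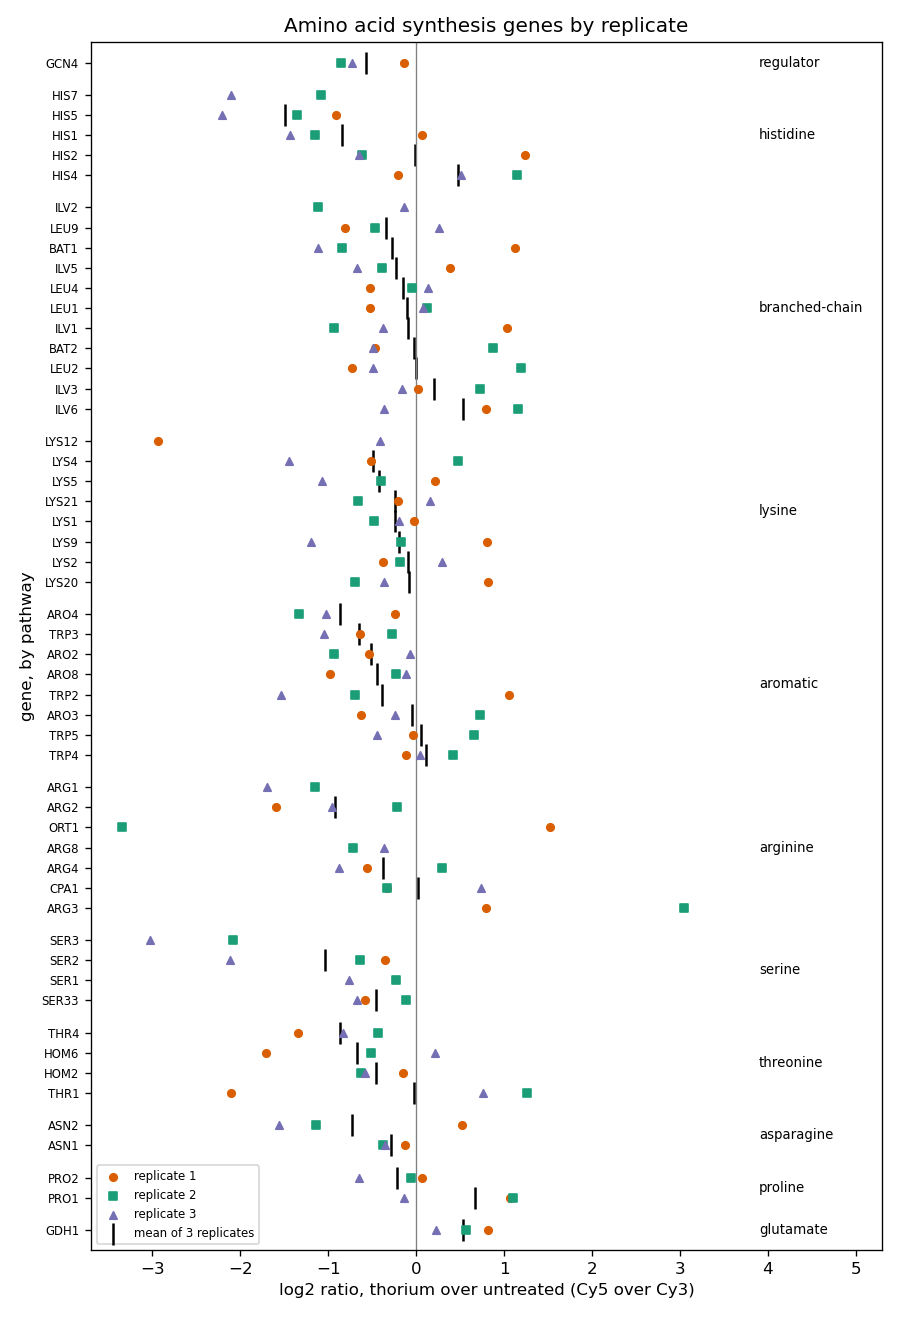
Log2 ratio of each amino acid synthesis gene in replicates 1 (circles), 2 (squares) and 3 (triangles) on the horizontal axis, with a bar at the mean of genes that have all 3, grouped by pathway on the vertical axis. HIS5 lies lowest by mean at -1.49, and the replicates of THR1 spread from -2.10, a value of the high power scan alone, to 1.26.

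GCN4, the shared activator, read -0.14, -0.85 and -0.73 in replicates 1, 2 and 3. All 3 values were below 0, the first close to it, and the mean was -0.57 ± 0.38 (SD, n = 3; limma adjusted p = 0.429). Without replicate 1 the mean was -0.79. After each scan was centred within sections of the array, a step described below, GCN4 stood at -0.09 ± 0.28, with replicates on both sides of 0.

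The histidine genes lay on both sides of 0. HIS1, for the enzyme of the pathway's entry step, read 0.06, -1.15 and -1.44, with a mean of -0.84 ± 0.80 (SD, n = 3; limma adjusted p = 0.368). HIS5, for the histidinol phosphate aminotransferase, read -0.91, -1.35 and -2.20, with a mean of -1.49 ± 0.66 (SD, n = 3; limma adjusted p = 0.271). It was the lowest mean of the 44 and rank 12 from the lowest of all 3613 genes. HIS7, whose enzyme closes the imidazole ring, had no value in replicate 1 and read -1.08 and -2.10 in replicates 2 and 3. HIS2, the histidinol phosphate phosphatase, read 1.24, -0.61 and -0.65, high in replicate 1 only, with a mean of -0.01 ± 1.08 (SD, n = 3). HIS4, a multifunctional enzyme that acts at early steps and at the last one, lay the other way, at -0.21, 1.14 and 0.51, with a mean of 0.48 ± 0.68 (SD, n = 3). In replicates 2 and 3, 4 of the 5 histidine genes with a value were below 0, against 39.2% of all genes, and HIS4 was above it. HIS4 minus HIS5 was 0.70, 2.49 and 2.71, above 0 in every replicate, and HIS4 minus HIS1 was -0.27, 2.30 and 1.94. These differences were chosen after their values were seen and were not tested.

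The branched-chain genes, for leucine, isoleucine and valine, showed no common direction. Their median was -0.10 over 10 genes with all replicates, and 0 of the 10 kept a sign in every replicate. Of all genes tested, 23.2% were below 0 and 15.4% above 0 in every replicate. After section-centring the median of the 10 was 0.10, and ILV6 alone kept a sign, above 0. ILV6, the regulatory subunit of acetolactate synthase, was highest at 0.79, 1.16 and -0.37, with a mean of 0.53 ± 0.79 (SD, n = 3). Its catalytic partner ILV2 had no value in replicate 1 and read -1.12 and -0.14 in the others. ILV5, the reductoisomerase of the next step, read 0.39, -0.39 and -0.67, below 0 in replicates 2 and 3 only. The isopropylmalate synthases LEU4 and LEU9, which commit carbon to leucine, read -0.53, -0.05 and 0.13 for LEU4 and -0.81, -0.47 and 0.26 for LEU9. As deposited the order of the replicates was the same in both genes, and LEU4 minus LEU9 was 0.19 ± 0.28 (SD, n = 3). After section-centring the orders were opposite, with LEU4 at 0.22, 0.06 and -0.24 and LEU9 at -0.55, -0.21 and 0.31. The mitochondrial aminotransferase BAT1 read 1.13, -0.84 and -1.11, and its cytosolic paralog BAT2 read -0.46, 0.88 and -0.49. BAT1 minus BAT2 was -0.25 ± 1.69 (SD, n = 3), a spread far larger than the difference. The means of ILV1, LEU1, LEU2 and ILV3, the threonine deaminase, the isomerase and dehydrogenase of the leucine branch and the dihydroxyacid dehydratase, ran from -0.10 to 0.20.

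All 7 lysine genes with every replicate had means below 0, from -0.49 to -0.08, where 56.5% of all genes tested did. Only LYS1 was below 0 in each replicate, as were 23.2% of all genes tested. After section-centring 6 of the 7 means were below 0, with LYS20 at 0.20, and LYS1 and LYS21 were below 0 in each replicate. LYS4, the homoaconitase, read -0.52, 0.48 and -1.45, so its replicates straddled 0. LYS5, which attaches the cofactor that the reductase Lys2 needs, read 0.21, -0.40 and -1.07, with a mean of -0.42 ± 0.64 (SD, n = 3). LYS1, the saccharopine dehydrogenase of the final step, read -0.02, -0.48 and -0.20, with a mean of -0.23 ± 0.23 (SD, n = 3). The homocitrate synthases of the entry step, LYS20 and LYS21, read 0.82, -0.69 and -0.37 for LYS20 and -0.20, -0.66 and 0.16 for LYS21. As deposited they lay close together in replicate 2 and apart in replicate 1, and LYS20 minus LYS21 was 0.15 ± 0.79 (SD, n = 3). After section-centring LYS20 read 0.46, 0.16 and 0.00, and LYS21 read -0.14, -0.32 and -0.34. LYS20 was then the higher in every replicate. LYS2 and LYS9, which act late in the pathway, had means of -0.09 and -0.19. LYS12, the homoisocitrate dehydrogenase, had values in replicates 1 and 3 only, at -2.93 and -0.41. Its value in replicate 1 rests on the high power scan alone.

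Among the aromatic genes 4 of 8 were below 0 in every replicate, ARO2, ARO4, ARO8 and TRP3, against 23.2% of all genes tested. Of the 4, ARO2 and ARO4 remained so after section-centring. ARO4, a DAHP synthase at the entry of the shikimate pathway, read -0.24, -1.33 and -1.03, with a mean of -0.87 ± 0.56 (SD, n = 3; limma adjusted p = 0.326). Its isozyme ARO3 read -0.63, 0.72 and -0.24, on both sides of 0, and ARO3 minus ARO4 was 0.82 ± 1.22 (SD, n = 3). ARO2, the chorismate synthase, read -0.53, -0.94 and -0.06, and ARO8, an aromatic aminotransferase, read -0.98, -0.22 and -0.12. TRP3, which carries a part of anthranilate synthase and a further tryptophan enzyme, read -0.63, -0.27 and -1.05, with a mean of -0.65 ± 0.39 (SD, n = 3; limma adjusted p = 0.378). TRP2, the other subunit of anthranilate synthase, read 1.06, -0.69 and -1.53. It differed from TRP3 mainly in replicate 1. TRP4 and TRP5, of later steps, stood near 0 at 0.11 ± 0.27 and 0.06 ± 0.56 (SD, n = 3). TRP5 has 2 probes with the same values, so that they add no second measurement, and so has CPA1 below.

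For arginine, 3 of 8 genes had a value in every replicate. ARG2, the acetylglutamate synthase that opens ornithine synthesis, read -1.59, -0.22 and -0.96, all below 0, with a mean of -0.92 ± 0.69 (SD, n = 3; limma adjusted p = 0.327). ARG4, the argininosuccinate lyase of the last step, read -0.55, 0.29 and -0.88. CPA1, the small subunit of carbamoyl phosphate synthetase, read -0.33, -0.33 and 0.74, so these 3 genes did not share a direction in any replicate but the first. ARG1, the argininosuccinate synthetase, had no value in replicate 1 and read -1.15 and -1.70, the lowest of the arginine genes in replicate 3. ARG8, the acetylornithine aminotransferase, read -0.72 and -0.37 in the same replicates, in high power scans alone. ARG3, the ornithine carbamoyltransferase, read 0.80 and 3.05 in replicates 1 and 2, and ORT1, the mitochondrial ornithine carrier, read 1.53 and -3.34. Both rest on the high power scan alone in each replicate, and neither had a value in replicate 3.

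In each replicate where they were measured, the scan averages of the serine genes were below 0, although the low power scan of SER1 in replicate 2 read 0.02. SER3 and SER33 encode isozymes of 3-phosphoglycerate dehydrogenase, which draws the pathway off glycolysis. SER3 had no value in replicate 1 and read -2.08 and -3.02 in replicates 2 and 3, the lowest values of any member in replicate 3 and the lowest but ORT1 in replicate 2. Its value in replicate 2 rests on the high power scan alone. SER33 read -0.58, -0.12 and -0.67, with a mean of -0.46 ± 0.30 (SD, n = 3; limma adjusted p = 0.495). SER33 minus SER3 was 1.97 and 2.35 in replicates 2 and 3, where both were measured. After section-centring SER33 read -0.01 and -1.19 and SER3 read -1.03 and -1.77 in those replicates. The gap was then smaller in each. SER1, the phosphoserine aminotransferase, read -0.23 and -0.76 in those replicates. SER2, the phosphoserine phosphatase that ends the pathway, read -0.36, -0.64 and -2.11, with a mean of -1.04 ± 0.94 (SD, n = 3; limma adjusted p = 0.344). Replicate 3 was far below the others for SER2.

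The replicates of the threonine branch differed widely. THR1, the homoserine kinase, read -2.10, 1.26 and 0.76, the lowest member value of replicate 1 among the 44 and the highest of replicates 2 and 3, and its mean was -0.03 ± 1.82 (SD, n = 3). Its value in replicate 1 rests on the high power scan alone. THR4, the threonine synthase of the next step, read -1.34, -0.43 and -0.83, with a mean of -0.87 ± 0.46 (SD, n = 3; limma adjusted p = 0.308). HOM2, the aspartate semialdehyde dehydrogenase, read -0.15, -0.62 and -0.58, and HOM6, the homoserine dehydrogenase, read -1.71, -0.51 and 0.22. As deposited, HOM2 and THR4 were below 0 in every replicate, and THR1 and HOM6 were not. After section-centring HOM2 read 0.27, -0.20 and -0.32, on both sides of 0, and HOM6 read -0.72, -0.10 and -0.22, so the places of these genes were exchanged.

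The asparagine synthetase genes ASN1 and ASN2 are paralogs. ASN1 read -0.13, -0.37 and -0.35, with a mean of -0.28 ± 0.14 (SD, n = 3; limma adjusted p = 0.651), the smallest spread of any member. ASN2 read 0.52, -1.13 and -1.56, with a mean of -0.72 ± 1.10 (SD, n = 3; limma adjusted p = 0.492). ASN1 minus ASN2 was -0.65, 0.76 and 1.21, so as deposited the order of the pair turned between replicate 1 and the others. After section-centring ASN1 read -1.10, -0.71 and -0.71, and ASN2 read -0.22, -0.47 and -0.31. ASN1 was then the lower in every replicate. In all 6 paralog pairs probes may share signal, and how alike their sequences are was not analysed here.

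Genes at the head of proline and glutamate synthesis lay above 0. PRO1, the glutamate kinase, read 1.07, 1.10 and -0.14, with a mean of 0.68 ± 0.71 (SD, n = 3), the highest of the 44. PRO2, the reductase of the next step, read 0.07, -0.06 and -0.65. GDH1, the NADP-dependent glutamate dehydrogenase that brings ammonium into glutamate, read 0.82, 0.57 and 0.22, with a mean of 0.54 ± 0.30 (SD, n = 3; limma adjusted p = 0.437). After section-centring PRO1 stood at -0.08 ± 0.30 and GDH1 at -0.33 ± 0.19, so the direction of both turned.

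Pathways were then set side by side by the median of their genes in each replicate, as a description with no test. The serine median was -0.47, -0.38 and -1.39, or -0.75 ± 0.56 (SD, n = 3), over SER2 and SER33. The histidine median was -0.07, -0.88 and -1.04, or -0.67 ± 0.52, and GCN4 alone stood at -0.57 ± 0.38. The arginine median averaged -0.55 ± 0.33 over 3 genes, the aromatic one -0.33 ± 0.07 over 8, the lysine one -0.26 ± 0.21 over 7 and the branched-chain one -0.18 ± 0.21 over 10 (SD, n = 3). The threonine median, -1.53, -0.47 and -0.18, ran against the histidine one in its order of replicates. Branched-chain minus arginine was 0.37 ± 0.13 and branched-chain minus serine 0.56 ± 0.41 (SD, n = 3), above 0 in every replicate. Aromatic minus serine was 0.42 ± 0.54, lysine minus GCN4 was 0.31 ± 0.18 and histidine minus lysine was -0.40 ± 0.32, each with 1 sign in all 3 replicates. Of the 28 pairs among these 7 pathways and GCN4, those 5 kept 1 sign in every replicate and the other 23 had both signs. After section-centring branched-chain minus arginine was 0.38 ± 0.10 and branched-chain minus serine 0.84 ± 0.51, while histidine minus lysine was -0.06 ± 0.20 and lysine minus GCN4 was -0.04 ± 0.45.

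**Figure D3:**
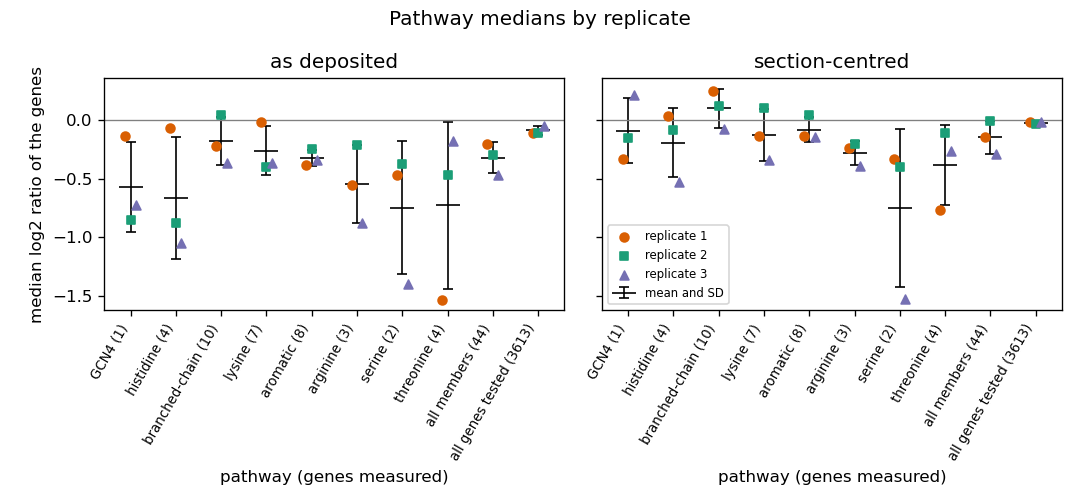
Median log2 ratio of each pathway's genes on the vertical axis, by replicate (symbols), with the mean and SD of the 3 replicates (bars), for the values as deposited (left) and after section-centring (right). The number of genes stands beside each pathway. The histidine and GCN4 values lie nearer to 0 on the right (-0.19 and -0.09 by mean), the serine ones do not (-0.75).

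Leaving out replicate 1 changed which members passed. In limma on replicates 2 and 3 over the same genes, HIS5 (mean -1.78, adjusted p = 0.0282), HIS1 (mean -1.29, adjusted p = 0.0416) and ASN2 (mean -1.35, adjusted p = 0.0416) passed, all below 0. That is 3 of 44 members, or 6.82%, against 5.29% of all genes. Over all alternatives tried the adjusted p ran from 0.0282 to 0.882 for HIS5, from 0.0416 to 0.882 for HIS1 and from 0.0416 to 0.913 for ASN2. Over genes with a value in both replicates 2 and 3, SER3 (mean -2.55, adjusted p = 0.0346) and HIS5 (adjusted p = 0.0498) passed, 2 of 50 members or 4% against 1.61% of all genes. HIS7 and ARG1, at an adjusted p = 0.0571 each, did not. In replicate 2 the values of SER3 and HIS7 rest on the high power scan alone. Over all probes that scan had an SD of 1.05, against 0.61 for the low power scan. For SER3 the adjusted p was 0.262 over genes in at least 2 replicates, the only other fit it entered. In replicates 2 and 3, 30 of 50 members (60%) were below 0 in both, against 39.2% of all genes. Over genes with a value in every replicate these were 24 of 44 members and 1444 of 3613 genes. After section-centring they were 19 of 44 members and 1288 of 3613 genes. With 2 replicates the limma fits rest on 1 residual degree of freedom and on the spread of other genes.

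Ratios also differed by place on the array, and the members' values moved with it. The array was divided into 192 sections of 36 probes by the probe numbers, an inferred layout, and the median of its section was taken from each value. The median member then stood at -0.13 and the median of all genes at -0.04. The mean was below 0 for 30 of the 44 members, where 36 were as deposited, and for 1955 of the 3613 genes. Of the 44 genes, 15 (34.1%) were below 0 in every replicate, against 24.4% of all genes. Those above 0 in every replicate were 4 (9.09%), HIS4, ILV6, TRP4 and PRO2, against 20% of all genes. Below 0 in every replicate in both forms were 9 members, or 20.5%, against 13.8% of all genes: HIS5, LYS1, ARO2, ARO4, ARG2, SER2, SER33, THR4 and ASN1. HIS5 stood at -1.15 ± 0.45, SER2 at -0.93 ± 0.87, ASN1 at -0.84 ± 0.22 and ARG2 at -0.63 ± 0.39 (SD, n = 3). HIS1 then stood at -0.34 ± 0.16 and ASN2 at -0.33 ± 0.13, nearer to 0 and with less spread than before. SER3 and ASN2 share a section, and centred SER3 read -1.03 and -1.77 in replicates 2 and 3. Without replicate 1, 0 members passed on section-centred values, where 0.72% of all genes did. At an unadjusted p under 0.05 there were 6 of 44 members, or 13.6%, against 21% of all genes, and HIS5 had an adjusted p = 0.102. Over the 44 genes the mean ratio and the size of the section correction correlated at a Pearson r of 0.55, and over all genes at 0.59, where both share the deposited value. The part of array position in these results was not tested further.

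**Figure D4:**
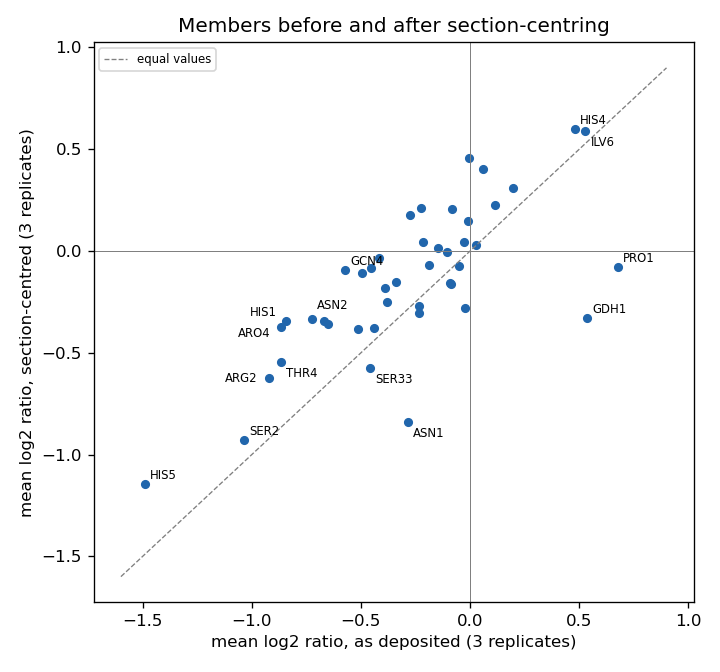
Mean log2 ratio of the 44 genes as deposited (horizontal axis) and after section-centring (vertical axis), with a dashed line at equal values. HIS5 and SER2 stay lowest, GCN4, HIS1 and ASN2 lie above the line, and GDH1 and PRO1 cross from above 0 to below it.

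The scans of an array bear on single values as well. A member's high and low power scans differed by a median of 0.30 in replicate 1, 0.48 in replicate 2 and 0.08 in replicate 3. The scans of 7, 7 and 2 members disagreed in sign in replicates 1, 2 and 3. The widest gap, 1.37, was that of PRO1 in replicate 2. All 6 scans gave a value for 30 members. In replicate 1 the values of LEU2, ILV1, LYS4, ARG2, THR1, THR4, ASN1, ASN2, PRO1 and GDH1 rest on the high power scan alone. The value of BAT1 in replicate 1 rests on the low power scan alone. Those of HIS2, HIS7, LEU1 and SER3 in replicate 2, and of LYS20 in replicate 3, rest on the high power scan alone. LYS12, ARG3, ARG8 and ORT1 are named above. Of the 9 members with 2 replicates, 6 lacked only replicate 1, the array with the fewest values in the series, and whether having a value depended on the RNA of either culture was not tested.

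Other genes of the same pathways lay on both sides of 0, and 0 of the 15 with all replicates, of 23 listed, passed limma's test in either direction. Of these 15, 5 were below 0 and 3 above 0 in every replicate, and their median was -0.21. Over all genes tested, 23.2% were below 0 and 15.4% above 0 in every replicate. PHA2, of phenylalanine synthesis, stood at 1.32 ± 0.82, AAT2, an aspartate aminotransferase, at -1.18 ± 0.40 and ARO7, the chorismate mutase, at -0.99 ± 0.28 (SD, n = 3). HOM3, the aspartate kinase ahead of HOM2, read -0.06, -1.43 and -1.30. Replicate 1 lay nearest 0 in HOM3, as it did in HIS1 and GCN4. Genes of the general control pathway, which act on GCN4 translation or on the Gcn4 protein, had a median of -0.14 over 12 measured genes, with 5 below 0 in every replicate, 0 above 0 in every replicate and 0 passing. The kinase GCN2 read -1.66, -0.38 and -0.30. GCD6, a subunit of the exchange factor eIF2B, read -2.35, -0.15 and 0.30, and its mean of -0.73 ± 1.42 (SD, n = 3) became 0.07 without replicate 1. SUI3, the eIF2 beta subunit, stood at -0.63 ± 0.15 (SD, n = 3). Pathway regulators had a median of 0.21 over 8 genes, which turned to -0.05 after section-centring, and 0 passed. The nitrogen GATA factor GAT1 stood at 1.94 ± 1.12, the arginine regulator ARG81 at 1.30 ± 0.74 and BAS1, which activates purine and histidine genes, at 1.24 ± 1.01 (SD, n = 3), each above 0 in every replicate. LYS14, the lysine activator, stood at 0.02 ± 0.95, and LEU3 read -1.76 and 0.00 in replicates 2 and 3.

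The purine synthesis genes, some of which Gcn4 also activates, had a median of -0.52 over 10 genes, with 5 below 0 in every replicate. The sulfur amino acid genes had a median of -0.02 over 13, with 2 below 0 in every replicate, against 23.2% of all genes tested. After section-centring these medians were -0.29 and 0.08, and the counts 4 and 2, against 24.4% of all genes. For the purine and sulfur genes the replicate medians averaged -0.41 ± 0.30 and 0.08 ± 0.18, beside -0.32 ± 0.13 (SD, n = 3) for the amino acid genes outside sulfur. After section-centring they were -0.20 ± 0.47 and 0.09 ± 0.06 beside -0.15 ± 0.14 (SD, n = 3). ADE2, of purine synthesis, read -0.37, -0.64 and -1.98, and MET13, a methylenetetrahydrofolate reductase, read 1.64, 1.30 and 0.81. No test between these groups was made.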

How the data were processed

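The authors labelled the cDNA of thorium-treated cells with Cy5 and that of untreated cells with Cy3 and, per the labels, kept spots with a flag of 0 for a LOWESS normalization. The deposited values were read as log2 ratios for each of 6912 probes and 6 scans. Neither the base nor the direction is stated, and how background was treated is not given in the sources used here. LOWESS centres a scan, which hides any shift that most genes have in common. Medians of the scans lay between -0.16 and 0.01. The low power scan of replicate 1 kept the fewest values, 2782. Brightness was not analysed here, and precision is limited by the number of arrays.

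Probe names came from the platform annotation, 1 name for 5513 probes and none here for 1399, and 5360 of 5365 names were matched to the R64 gene table. Probes were averaged per gene, then scans per replicate, and the 3613 genes with all 3 replicates were tested against 0 with limma 3.58.1 in R 4.3.3 (lmFit, eBayes), 2-sided, with Benjamini-Hochberg adjustment, a threshold of 0.05 and 2 residual and 4.43 prior degrees of freedom. In simulated data for thorium against untreated with 3613 genes, 200 of them changed, the test found 7.2% of changes of 1 on the log2 scale, 84.0% of 2, 96.8% of 3 and 98.0% of 4. The planted changes were of 1 to 4 in equal numbers, with noise drawn independently for each gene and replicate. On these arrays ratios differed by section, replicates 2 and 3 correlated more closely than either did with replicate 1, and 0 genes passed. The shares therefore do not say how often a change of a given size would be called here.

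Members, lists, alternatives and section-centring (sections with at least 5 values) were chosen with earlier results of these data known. Every replicate is named for GCN4, for small pathways, for the 4 largest means of larger ones and for paralogs, and other lists show up to 3 genes. HOM3, LYS14, LEU3, the replicates of TRP2 and HIS4 minus HIS5 or HIS1 were added after their values were seen. Promoter motifs and protein identities were planned and not analysed here.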

Additional observations from a re-analysis of the deposited data

How the results depend on the processing

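Under high or low power scans alone, a fit of all 6 scans that treats replicates as a random block, genes in at least 2 replicates, genes in both scans of all replicates, quantile normalization, scans centred on their medians and section-centring, 0 members had an adjusted p under 0.05 in limma, as in the values reported. Leaving out 1 replicate gave 0 to 3 such members (3 without replicate 1, with 191 of all genes against 0), and the medians then ran from -0.96 to -0.12 for histidine, -0.48 to -0.09 for lysine, -0.37 to -0.20 for aromatic and -0.72 to -0.29 for arginine genes. The branched-chain median was -0.17 to 0.10. The aromatic median was -0.34 with scans centred on their medians and -0.27 with section-centring, under which the glutamate gene GDH1 stood at -0.33. A pair of settings was added after seeing the data. Replicates 2 and 3 over genes with a value in both gave 2 members (77 of all genes) and medians of -0.49 for members, -1.29 for histidine, -0.48 for lysine and -0.34 for aromatic genes. Section-centred values without replicate 1 gave 0 members (26 of all genes) and medians of 0.12 for branched-chain, -0.14 for aromatic and -0.44 for glutamate genes. The cause was not tested. Of the 44 means, 10 changed sign with section-centring and 7, 7 and 11 without replicate 1, 2 or 3. Changes of 1 on the log2 scale were mostly missed in the simulation. Its setting differed from these 3 arrays, so it does not show which sizes were detectable here.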
